A study of Mus musculus with 6 samples.

Results

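Alternative splicing of 10 genes that build or steer the actin cytoskeleton and the membrane skeleton was examined in primary mouse medullary thymic epithelial cells (mTECs). The genes were Nhsl1, Mprip, Evl, Add3, Ablim1, Pdlim5, Pak3, Fnbp1, Nf2 and Ank1, and every event listed under these 10 symbols was taken and numbered by its row order within the gene. This gave 33 events of the 4658 that were compared in all libraries, in 10 of 2685 genes. The genes were picked from this series after their inclusion values in the same 6 libraries were known. The values of their events are therefore given as a description, and no test of them is used as support. Events that passed a threshold between the knockdowns are only named near the end.

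The libraries fell into 3 groups of 2. The Raver2 knockdown group carried lentiviral shRNAs against Raver2, an RNA-binding protein that partners the splicing repressor PTB, and the Setd2 knockdown group carried shRNAs against Setd2, the histone methyltransferase that marks transcribed gene bodies. Control libraries (Ctr) came from cells given an anti-LacZ shRNA, which has no target in mouse cells. The libraries of each knockdown group used a different hairpin each (sh1 and sh2), so hairpin and replicate are the same factor. All groups shared the same setting: mTECs (CD45- EpCAM+ Ly51- I-A/E+) grown over human dermal fibroblasts in a fibrin gel, a vector with eGFP, and sorting of live, I-A/E+, GFP+ cells 5 days after infection. Separate animals or cultures are not named for the libraries in the labels, nor are strain and age, so any p-value measures only the spread between these libraries. The libraries are from bulk cells, where a changed mix of cell types and changed splicing within a cell cannot be told apart.

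Each value is an inclusion fraction from 0 to 1, the share in which the alternative stretch of an event is kept. The tables hold no read counts, so how many reads a fraction rests on is unknown and no interval or floor is given. Events carry no identifier besides the gene symbol, and comparing them across libraries assumes that the row order within a gene is the same in each table. Neither Raver2 nor Setd2 was listed in any library, so the knockdowns could not be checked here. Events were listed for 2 of 10 thymic epithelial markers (Aire and Cd74), 1 of 10 fibroblast markers (Postn) and 4 of 10 leukocyte markers (Ptprc, Cd8a, Lck and Cd68), and a listed event carries no level. Across all events, fractions correlated at 0.796 to 0.809 within groups and at 0.753 to 0.798 between groups (Pearson, across events, which are not independent).

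Actin filaments grow at their fast end under the cell membrane, where nucleating complexes start them, Ena/VASP proteins lengthen them and capping proteins stop them. Myosin pulls on them and myosin phosphatase relaxes that pull. Beneath the membrane, a meshwork of spectrin is tied to short actin filaments by adducin and to membrane proteins by ankyrin. In epithelia this machinery holds junctions and cell shape, and many of its genes are known for exons that differ between tissues and between epithelial and mesenchymal cells.

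The files name an event by its gene alone, so which exon each value concerns is not known here. The annotation shows what could be skipped. In GENCODE M21 (mm10), each of the 10 genes had at least 1 coding cassette exon, an exon that one protein-coding transcript holds between a pair of exons that another transcript joins directly. There were 32 such exons with a median length of 106.5 bases, some of them overlapping forms of 1 exon. All 32 had a length that is a multiple of 3, so that skipping them keeps the reading frame, against 84.4% of the 2275 coding cassette exons of all compared genes. The genes were also long, with a median of 144952 bp against 32087.5 bp for all compared genes found in the annotation.

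Nhsl1, Mprip, Evl and Add3 had 1 event each. Their coding cassette exons are shown, apart from a very long one of Mprip, as candidates for the events described next. They are not the only ones. The kind of each event is not given, and only cassette exons were sought in the annotation. Capitals mark the exon and lower case the 12 bases of the neighbouring exons on either side in the transcript.
Nhsl1 exon of 132 bases, chr10:18516029-18516160, plus strand: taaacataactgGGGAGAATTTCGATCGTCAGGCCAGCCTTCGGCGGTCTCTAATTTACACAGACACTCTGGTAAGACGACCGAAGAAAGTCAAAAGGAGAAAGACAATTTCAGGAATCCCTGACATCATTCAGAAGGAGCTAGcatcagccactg
Mprip exon of 108 bases, chr11:59741991-59742098, plus strand: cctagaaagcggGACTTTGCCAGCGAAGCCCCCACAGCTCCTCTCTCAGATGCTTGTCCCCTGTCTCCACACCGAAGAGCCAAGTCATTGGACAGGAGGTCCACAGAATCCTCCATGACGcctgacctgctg
Evl exon of 63 bases, chr12:108683348-108683410, plus strand: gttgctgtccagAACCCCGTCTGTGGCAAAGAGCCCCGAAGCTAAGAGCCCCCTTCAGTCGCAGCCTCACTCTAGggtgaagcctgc
Add3 exon of 78 bases, chr19:53232356-53232433, plus strand: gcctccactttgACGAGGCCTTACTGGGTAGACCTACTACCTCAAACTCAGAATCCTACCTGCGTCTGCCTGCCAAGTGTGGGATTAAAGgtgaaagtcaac
Add3 exon of 96 bases, chr19:53244310-53244405, plus strand: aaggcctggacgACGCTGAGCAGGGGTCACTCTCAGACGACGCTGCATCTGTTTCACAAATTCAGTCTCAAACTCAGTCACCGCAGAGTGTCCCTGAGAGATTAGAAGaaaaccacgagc
Nhsl1 had no other annotated cassette exon in its protein-coding transcripts. Mprip also had a coding cassette exon of 3804 bases and 1 of 66 bases that is not coding in every transcript, and Evl and Add3 had further exons outside the coding sequence in some transcripts. The Add3 exon of 96 bases was held by 4 of 15 protein-coding transcripts and that of 78 bases by 1 of 15. None of these exons is tied to a value below.

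Nhsl1 (chromosome 10, 18318985 to 18533892) acts at the leading edge, where it binds the WAVE complex and restrains protrusion. Its event was included at 0.892 and 0.869 with Raver2 knockdown (sh1 and sh2), at 0.924 and 0.917 with Setd2 knockdown, and at 0.418 and 0.343 in Ctr. All 4 knockdown libraries lay far above both Ctr libraries. The difference of means was 0.50 for Raver2 knockdown minus Ctr and 0.54 for Setd2 knockdown minus Ctr, while the widest gap within a group was 0.0754, between the Ctr libraries. Larger absolute differences were found in 4.29% of all events for Raver2 knockdown and in 3.26% for Setd2 knockdown.

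Evl (chromosome 12, 108554720 to 108688516) is an Ena/VASP protein that lengthens filaments. Its inclusion was 0.819 and 0.831 with Raver2 knockdown, 0.848 and 0.800 with Setd2 knockdown, and 0.556 and 0.539 in Ctr. Both knockdown groups were thus higher than Ctr, by 0.278 and 0.277, and overlapped each other. The gaps between libraries were 0.0129, 0.0486 and 0.0165 in Raver2 knockdown, Setd2 knockdown and Ctr.

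Fnbp1 (chromosome 2, 31026206 to 31142008, minus strand) is an F-BAR protein that bends membranes and recruits N-WASP for actin assembly. Event 2 was below 0.01 in all 4 knockdown libraries and stood at 0.453 and 0.484 in Ctr. The difference was -0.469 for Raver2 knockdown and -0.468 for Setd2 knockdown, and the groups did not overlap. Event 1 was rarely included anywhere, at 0.0127 and 0.0160 with Raver2 knockdown, 0.0105 and 0.00529 with Setd2 knockdown, and 0.0404 and 0.0334 in Ctr. It was lower in all knockdown libraries as well, with differences from Ctr of -0.0225 and -0.029.

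Mprip (chromosome 11, 59661305 to 59780860) brings myosin phosphatase to actin filaments and so bears on relaxation. Its inclusion was 0.155 and 0.123 with Raver2 knockdown, 0.121 and 0.163 with Setd2 knockdown, and 0.471 and 0.527 in Ctr. It was lower in every knockdown library than in either Ctr library, with differences of means of -0.36 and -0.357. The libraries of a group differed by at most 0.0562, and the knockdown groups overlapped.

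Pak3 (chromosome X, 143518591 to 143797796) is a kinase activated by Rac and Cdc42, best known in neurons. Event 4 was included at 0.999 in both Raver2 knockdown libraries, at above 0.99 and 0.991 with Setd2 knockdown, and at 0.105 and 0.00880 in Ctr. Inclusion was nearly complete in the knockdown libraries and low in Ctr, with differences of 0.942 and 0.938, and 0.708% and 0.580% of all events differed more. Event 3 was 0.142 and 0.138 with Raver2 knockdown, 0.971 and 0.00672 with Setd2 knockdown, and below 0.01 in both Ctr libraries. Its Setd2 mean of 0.489 therefore describes neither hairpin. Event 2 was low throughout, at 0.0466 and 0.0489, 0.00363 and 0.128, and 0.0390 and 0.0203 in Raver2 knockdown, Setd2 knockdown and Ctr, and event 1 was below 0.01 in every library.

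Ablim1 (chromosome 19, 57032733 to 57314919, minus strand) binds actin through a villin headpiece and carries LIM domains. It had 4 events, and no library put any of them below 0.01 or above 0.99. Event 1 was 0.910 and 0.914 with Raver2 knockdown, 0.912 and 0.937 with Setd2 knockdown, and 0.830 and 0.833 in Ctr. Event 2 was 0.505 and 0.494 with Raver2 knockdown, 0.454 and 0.484 with Setd2 knockdown, and 0.378 and 0.368 in Ctr. Both were higher under either knockdown, without overlap. Event 3 had means of 0.0895 ± 0.00428 with Raver2 knockdown, 0.0670 ± 0.0117 with Setd2 knockdown and 0.108 ± 0.00178 in Ctr (SD, n = 2 each). Event 4 had means of 0.472 ± 0.00557, 0.510 ± 0.0127 and 0.582 ± 0.00145 in the same groups. These 2 events were lower under either knockdown. Events 2 and 4 summed to within 0.0488 of 1 in every library and events 1 and 3 to within 0.0611, so the members of a pair differed from Ctr in opposite directions and may not be independent measurements. The differences of Ablim1 events were modest, from -0.111 to 0.127, and 24.6% of all events differed by more than event 2 did for Raver2 knockdown minus Ctr.

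Pdlim5 (chromosome 3, 142239590 to 142395696, minus strand) is a PDZ and LIM domain protein that binds alpha-actinin. Event 5 was below 0.01 in both Raver2 knockdown libraries, above 0.99 in both Setd2 knockdown libraries, and 0.997 and above 0.99 in Ctr. Of the 6 libraries, those of Raver2 knockdown had almost none of this form, with a difference of -0.999 from Ctr, while Setd2 knockdown differed from Ctr by 0.00132. Event 6 was 0.995 and 0.983 with Raver2 knockdown, 0.991 and 0.993 with Setd2 knockdown, and 0.855 and 0.883 in Ctr, and was higher in all 4 knockdown libraries. Event 2 was below 0.01 in 5 libraries and above 0.99 in the first Ctr library, so its difference of -0.50 from Ctr in both knockdowns came from 1 library. Event 1 had 0.00471 and 0.0168 with Raver2 knockdown and was below 0.01 elsewhere, event 3 was below 0.01 in every library, and event 4 was above 0.99 in every library.

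Add3 (chromosome 19, 53140443 to 53247399) encodes gamma-adducin, which caps filaments and ties them to spectrin. Its inclusion was 0.572 and 0.541 with Raver2 knockdown, 0.536 and 0.554 with Setd2 knockdown, and 0.247 and 0.237 in Ctr. It was higher in all 4 knockdown libraries than in Ctr, by 0.315 with Raver2 knockdown and 0.303 with Setd2 knockdown, with at most 0.0302 between the libraries of a group.

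Nf2 (chromosome 11, 4765845 to 4849536, minus strand) encodes merlin, a relative of the ERM proteins that links the membrane to actin and restrains growth through the Hippo pathway. Event 1 was 0.109 and 0.0912 with Raver2 knockdown, 0.000149 and 0.01995 with Setd2 knockdown, and 0.162 and 0.187 in Ctr. The groups did not overlap, and Setd2 knockdown was lowest. The differences from Ctr were -0.0742 for Raver2 knockdown and -0.164 for Setd2 knockdown. Event 2 was below 0.01 in every library.

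Ank1 (chromosome 8, 22974844 to 23150497) encodes ankyrin-1, which fixes spectrin to membrane proteins in red cells and has short forms in muscle. It had 11 events, more than any of the other genes here. Event 1 was above 0.99 in both Raver2 knockdown libraries, 0.00630 and below 0.01 with Setd2 knockdown, and above 0.99 in both Ctr libraries. Event 5 was above 0.99 with Raver2 knockdown, below 0.01 with Setd2 knockdown and 0.814 and 0.842 in Ctr. Both were near 0 in the Setd2 knockdown libraries and above 0.8 in the others. Events 6 and 10 held the same values in every library, above 0.99 in all 4 knockdown libraries and 0.814 and 0.842 in Ctr, and are not independent of each other. Event 7 was 0.0103 and 0.0266 with Raver2 knockdown, below 0.01 in both Setd2 knockdown libraries, and 0.470 and 0.842 in Ctr, so the Ctr libraries themselves differed by 0.372.

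In 5 further Ank1 events the Setd2 hairpins gave opposite values. Events 3 and 4 were included at above 0.99 with sh1 and below 0.01 with sh2, and events 8, 9 and 11 at below 0.01 with sh1 and above 0.99 with sh2. With Raver2 knockdown, events 3 and 4 were below 0.01 and events 8, 9 and 11 above 0.99 in both libraries. In Ctr, event 3 was 0.186 and 0.158, event 9 was 0.814 and 0.842, event 4 was below 0.01 and events 8 and 11 were above 0.99. Event 4 and events 8 and 11, and likewise events 3 and 9, summed to within 0.02 of 1 in all 6 libraries, so these 5 events are not independent measurements. Events 1 and 8 differed by at most 0.001 in 5 libraries, all but Setd2 sh2, and so did events 5 and 9. Events 6 and 10 differed from event 9 by at most 0.001 in 5 libraries, all but Setd2 sh1. Events 1, 5, 6 and 10 are thus not independent of these 5 events either. Event 2 was below 0.01 throughout.

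**Figure D1:**
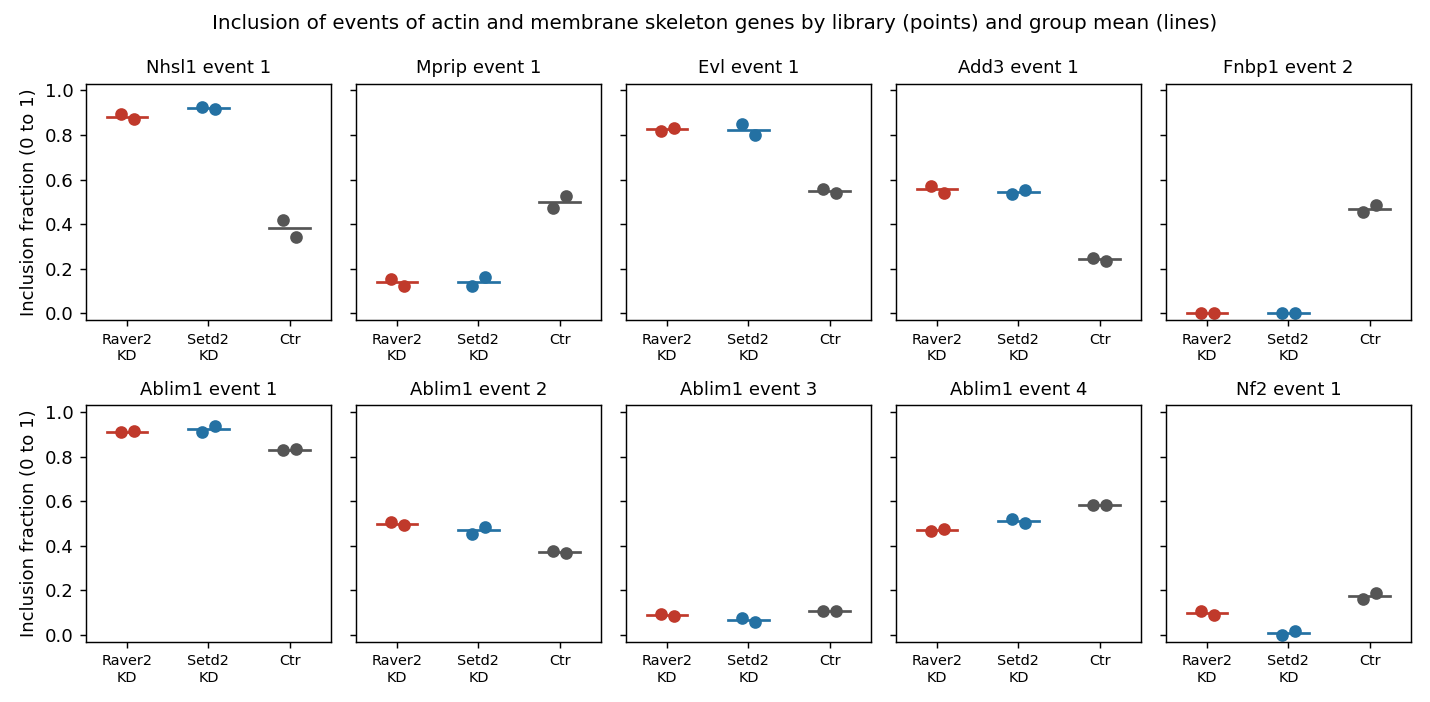
Inclusion fraction (vertical axis, 0 to 1) of 10 events in each library (points) with the group mean (line), for Raver2 knockdown, Setd2 knockdown and Ctr. The Nhsl1, Evl and Add3 points are higher in all 4 knockdown libraries than in Ctr, those of Mprip and Fnbp1 event 2 are lower, and the 4 Ablim1 events differ by 0.127 at most.

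**Figure D2:**
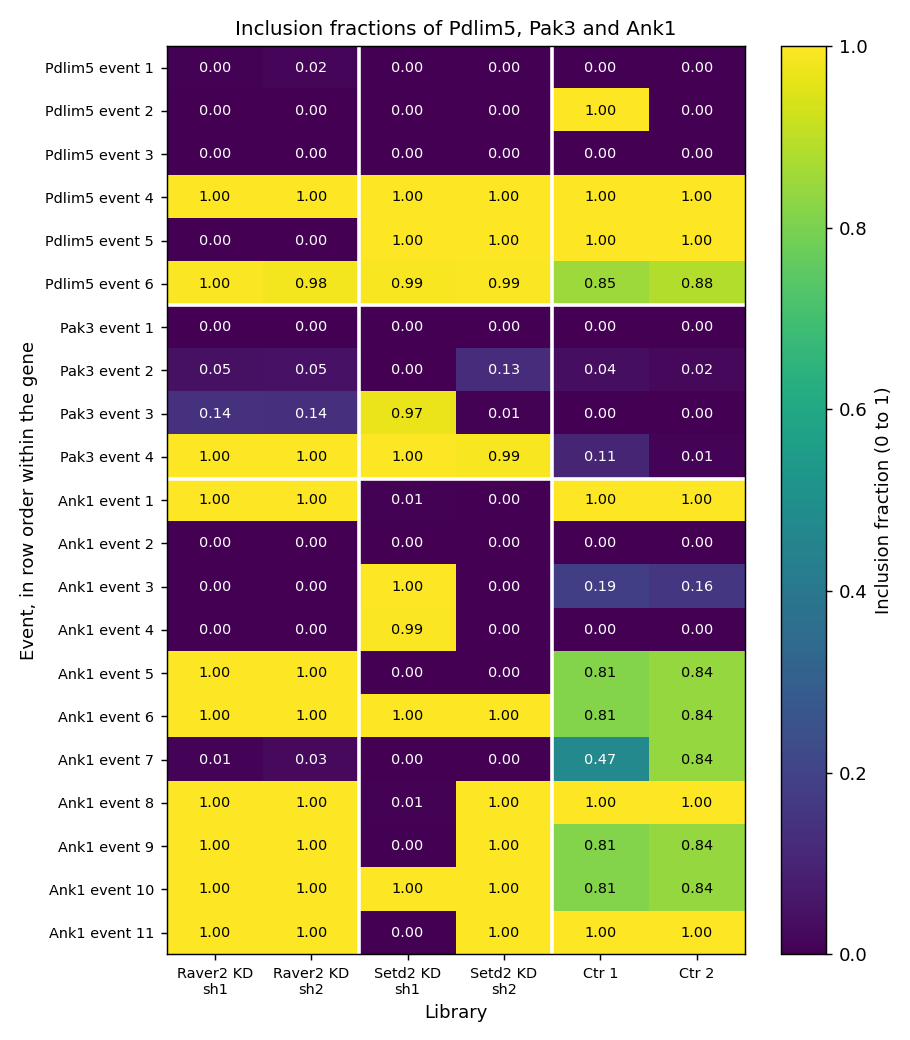
Inclusion fraction (colour and printed value, 0 to 1) of every event of Pdlim5, Pak3 and Ank1 in the 6 libraries, with events in row order. Pdlim5 event 5 is near 0 with both Raver2 hairpins only, Ank1 event 1 is near 0 with both Setd2 hairpins only, and Ank1 events 3, 4, 8, 9 and 11 and Pak3 event 3 differ between the Setd2 hairpins.

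Over the 33 events, 28 had Raver2 knockdown libraries both beyond both Ctr libraries, where 44.0% of all events did, and 23 had Setd2 knockdown libraries placed so, against 42.5% of all events. With the identical Ank1 events 6 and 10 counted once, these were 27 and 22 of 32. The other Ank1 events that are not independent of each other are still counted singly, here and below. The rule sets no minimum difference, here or for the background, so it also counts events at an end of the scale in every library. For Raver2 knockdown these included Pdlim5 events 3 and 4 (differences of -2.02e-06 and 2.55e-06), Pak3 event 1 (5.85e-06) and Nf2 event 2 (1.67e-06). With a difference of means of at least 0.2 as well, the counts were 9 of 33 for Raver2 knockdown (background 10.2%) and 10 of 33 for Setd2 knockdown (background 10.5%). Pdlim5 event 2 is counted for Raver2 knockdown, although Ctr library 2 was below 0.01 like the knockdown libraries. Pak3 event 3 is counted for Setd2 knockdown, although sh2 was below 0.01 like both Ctr libraries. Between the knockdowns, 17 of 33 events did not overlap (background 33.8%) and 8 of 33 were also apart by 0.2 (background 6.78%), which were Pdlim5 event 5 and Ank1 events 1, 3, 4, 5, 8, 9 and 11. The 17 include Ank1 event 2, with a difference of 3.06e-09. In Ank1 events 3, 4, 8, 9 and 11 the Setd2 hairpins gave opposite values. There the Setd2 sh2 library lay at the same end of the scale as both Raver2 knockdown libraries, so these events do not separate the groups. Because the genes were picked for values like those counted here, these shares are no evidence about actin genes. Both comparisons with Ctr use the same Ctr libraries, so the like differences of Nhsl1, Evl, Mprip, Add3, Fnbp1 and Pak3 in the knockdowns are not separate observations of the controls.

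**Figure D3:**
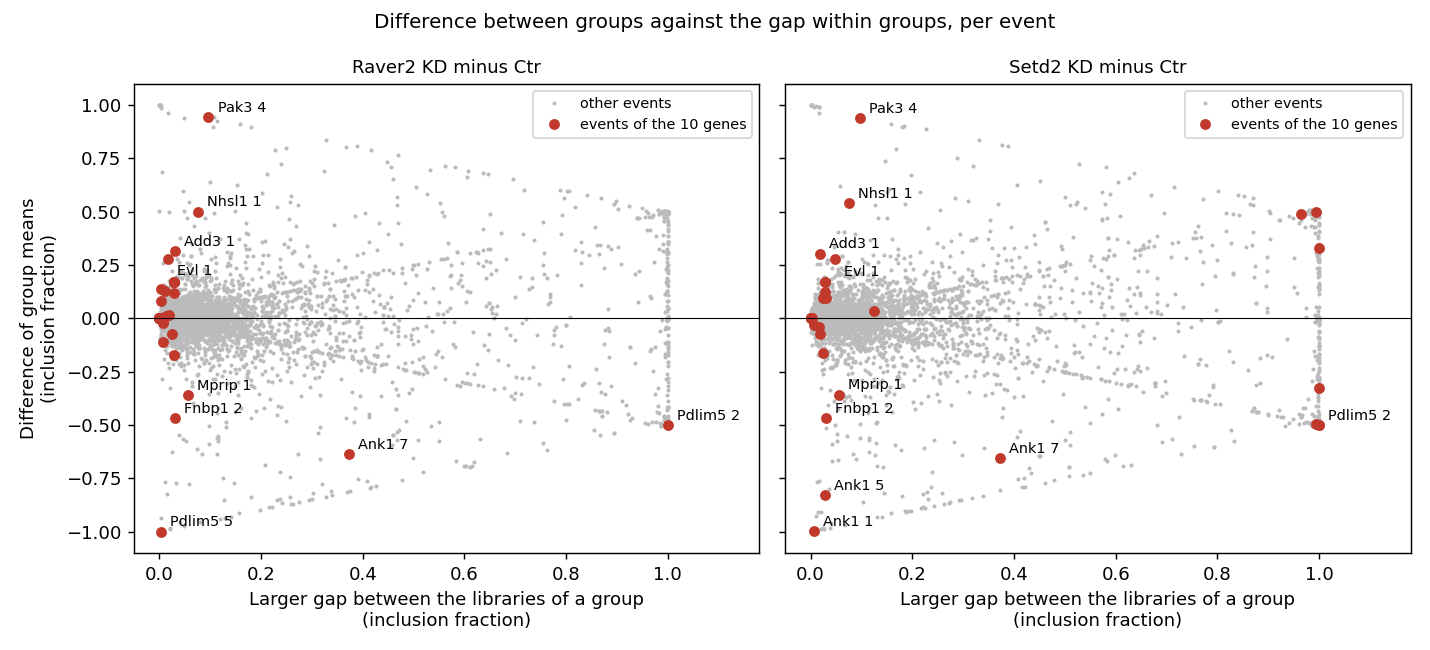
Difference of group means (vertical axis, inclusion fraction) against the larger gap between the libraries of a group (horizontal axis, inclusion fraction) for every event, with the events of the 10 genes in red and the other events in grey. Nhsl1, Mprip, Evl, Add3, Fnbp1 event 2 and Pak3 event 4 lie left, where gaps are at most 0.0965, while Pdlim5 event 2 lies at the right edge with a gap of 0.9995 between the Ctr libraries.

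Reproducibility differed between events of the set. The median gap between the libraries of a group was below 0.01 for the 33 events in both knockdown groups and 0.0104 in Ctr, against 0.0277, 0.0296 and 0.0335 for all events in Raver2 knockdown, Setd2 knockdown and Ctr. A gap between 2 values at the same end of the scale is near 0, which can lower these medians. The genes were also picked with these values known, so the small medians are a description only. A gap of more than 0.5 was seen in 0 of 33 events with Raver2 knockdown, 6 of 33 with Setd2 knockdown and 1 of 33 in Ctr, where all events gave 6.40%, 7.41% and 6.72%. The 6 with Setd2 knockdown were Pak3 event 3 and Ank1 events 3, 4, 8, 9 and 11, and that in Ctr was Pdlim5 event 2. Those Ank1 events are not independent measurements, so the 6 are not separate disagreements between the hairpins. Of the 33 events, 25 had a library below 0.01 or above 0.99 (75.8%, against 57.1% of all events). In all 6 libraries 11 of the 33 had this, beside 614 of the 4658 events compared. The 8 of the 33 with no such library were the events of Nhsl1, Mprip, Evl, Add3 and Ablim1.

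Events of other genes with the most similar values over the 6 libraries were sought for the event of each gene with the widest range, by the root mean square difference of the fractions. Nearest to Nhsl1 were Nfasc event 2 (0.0771), Cask event 3 (0.0909) and Evl itself (0.118). Events close to Mprip included Smox event 3 (0.0593) and Mov10 event 1 (0.0838), and Evl was nearest to event 4 of Eif4a2 (0.0345), an RNA helicase gene. For Add3 the nearest was 1600012H06Rik event 4 (0.0505), followed by Luc7l event 2 (0.0549), for Fnbp1 Pcdh19 (0.0276) and Nfasc event 3 (0.0305), and for Pak3 Lin7a event 1 (0.0262). Ablim1 event 2 was nearest to Map3k7 (0.0257) and Nf2 event 1 to Sat1 (0.0372). They had 15 and 17 events within 0.05, whereas Nhsl1, Mprip and Add3 had 0. Ank1 event 5 had no event closer than Zfp2 (0.116), and Pdlim5 event 5 had 3 events within 0.05. With 6 libraries in 3 groups, events with like group means are near by this measure.

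The other genes of the machinery were taken from 8 lists of textbook members, 154 genes in all, of which 42 had 75 events in all 6 libraries. In a limma fit of all 4658 events with Benjamini-Hochberg adjustment, 1 of these 75 events passed for Raver2 knockdown against Ctr, 0 for Setd2 knockdown against Ctr and 0 between the knockdowns, against 2.43%, 2.23% and 0.73% of all events (adjusted p under 0.05 over all events). At an unadjusted p under 0.05 the counts were 9, 11 and 5 of 75 (12%, 14.7% and 6.67%), beside 12%, 11.6% and 6.12% of all events. Groups were apart by 0.2 or more without overlap in 6 of the 75 events for Raver2 knockdown (8.0%, against 10.2% of all events) and in 17 for Setd2 knockdown (5 higher and 12 lower; 22.7%, against 10.5%). Groups did not overlap in 41 events for Raver2 knockdown (54.7%, against 44.0%) and in 44 for Setd2 knockdown (58.7%, against 42.5%). These shares were not tested, and events of 1 gene need not be independent. The lists were chosen with earlier results of these data known. The counts without overlap set no minimum difference. The median absolute difference was 0.0231 for Raver2 knockdown and 0.0336 for Setd2 knockdown against Ctr, beside 0.0423 and 0.0412 for all events, and the median signed difference was within 0.01 of 0 in both.

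Inclusion fell in event 1 of Pacsin1, an F-BAR protein of endocytosis in neurons, with Raver2 knockdown. Its values were 0.392 and 0.428 with Raver2 knockdown, 0.763 and 0.682 with Setd2 knockdown, and 0.999 and 0.953 in Ctr. The difference of Raver2 knockdown from Ctr was -0.566 ± 0.0404 (SE; limma, adjusted p = 0.0187), and both libraries were lower. That call was lost without Ctr library 1 (limma, adjusted p = 0.0568) and without Raver2 knockdown library 1 or 2 (0.0731 and 0.0795). For Setd2 knockdown the difference of -0.254 ± 0.0404 did not pass (limma, adjusted p = 0.119), nor did that between the knockdowns (adjusted p = 0.166). The other 11 events of the list of membrane shaping proteins, which lie in 9 genes, did not pass. Event 1 of Bin1, which curves membranes, stood at 0.0175 ± 0.00417, 0.0181 ± 0.000427 and 0.000929 ± 0.00131 in Raver2 knockdown, Setd2 knockdown and Ctr (SD, n = 2 each).

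The membrane skeleton list had 10 events in 4 genes and none passed. Ank3 event 4, of the ankyrin of epithelial lateral membranes and axons, was 0.00151 and 0.302 with Raver2 knockdown, 0.00628 and 0.0312 with Setd2 knockdown, and above 0.99 in both Ctr libraries. Event 1 of Dmtn, which bundles actin in the red cell membrane skeleton, was 0.370 and below 0.01 with Raver2 knockdown, below 0.01 in both Setd2 knockdown libraries and above 0.99 in both Ctr libraries. Their differences from Ctr were -0.848 ± 0.119 and -0.815 ± 0.143 for Raver2 knockdown and -0.981 ± 0.119 and -0.9997 ± 0.143 for Setd2 knockdown (SE), with limma adjusted p-values of 0.0856, 0.145, 0.0648 and 0.0888. These are wide differences in which the Raver2 hairpins did not give the same value.

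In the list of nucleation and leading edge genes, 14 of 38 genes had 28 events and none passed. Cttn, cortactin of branched actin networks, was 0.382 and below 0.01 with Raver2 knockdown, below 0.01 and 0.165 with Setd2 knockdown, and 0.680 and 0.672 in Ctr. Event 3 of Abi1, a subunit of the WAVE complex, was below 0.01 in all 4 knockdown libraries, and 0.311 and 0.0720 in Ctr. None passed among the 4 contractility events, where the filament-coating tropomyosin Tpm3 (event 1) averaged 0.401 ± 0.0400, 0.379 ± 0.0167 and 0.240 ± 0.0491 in Raver2 knockdown, Setd2 knockdown and Ctr (SD, n = 2 each) and Tpm2 0.204 ± 0.230, 0.127 ± 0.0396 and 0.0110 ± 0.00457.

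Of the LIM domain genes, close relatives of Ablim1 and Pdlim5, 4 of 16 had 10 events and none passed. Event 1 of Ldb3, a PDZ and LIM protein of the muscle Z disc, was above 0.99 in every library but the first Ctr library, where it was 0.354. The lists of PAK partners and of the Hippo pathway had 2 events and 1 event, and none passed. Event 1 of Git2, a scaffold for PAK, averaged 0.558 ± 0.0213, 0.553 ± 0.0262 and 0.634 ± 0.00779 in Raver2 knockdown, Setd2 knockdown and Ctr, and Arhgef7, the exchange factor that binds PAK, was below 0.01 in all libraries. Yap1, the effector that the Hippo pathway restrains, was 0.999 and 0.00103 with the Raver2 hairpins, below 0.01 with both Setd2 hairpins, and 0.720 and 0.497 in Ctr. In the list of capping, severing and cross-linking genes none of 8 events passed. Event 1 of Gsn, the severing protein gelsolin, averaged 0.946 ± 0.0188, 0.951 ± 0.00368 and above 0.99, and event 1 of Flna, the cross-linker filamin A, 0.102 ± 0.00770, 0.116 ± 0.0293 and 0.137 ± 0.00690 in the same groups.

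**Figure D4:**
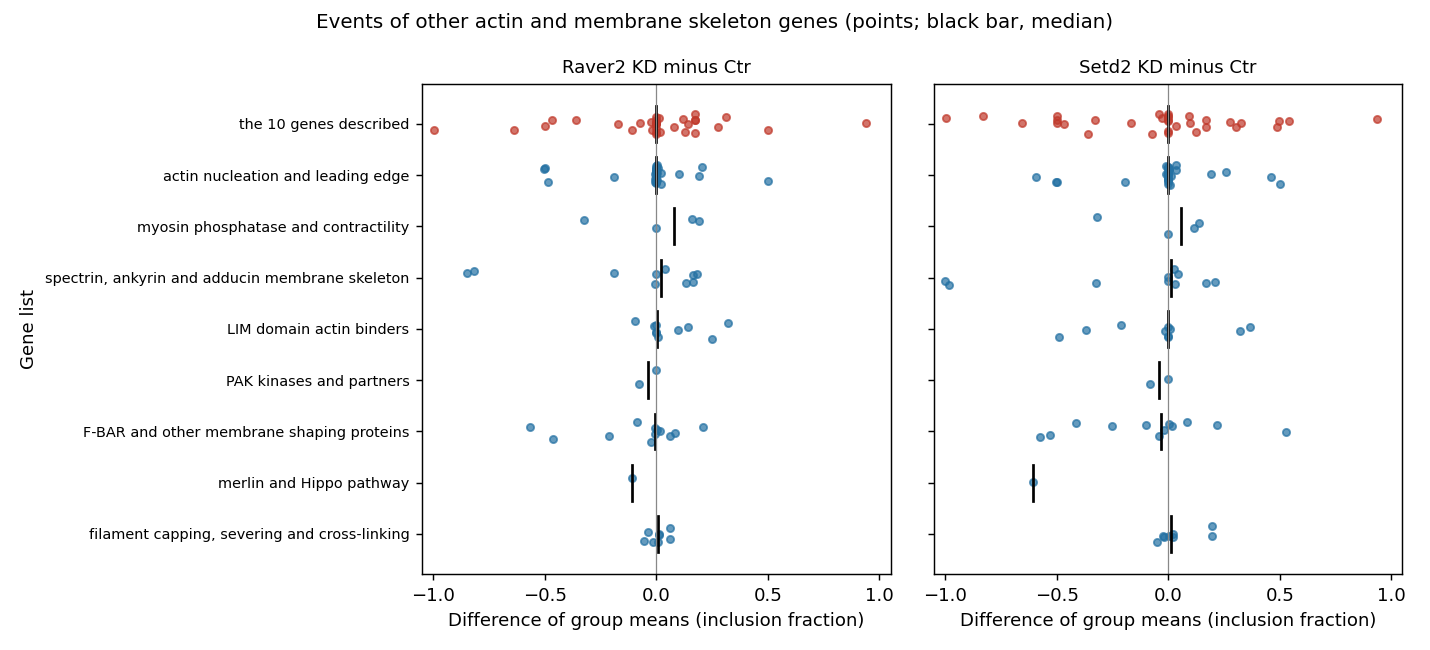
Difference of group means from Ctr (horizontal axis, inclusion fraction) for each event (points) of the 10 genes (top row, red) and of the 8 lists of other genes (blue), with black bars at the medians. Most events of the lists lie near 0, and the events of Ank3 and Dmtn lie furthest to the left among them.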

How the data were processed

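The 6 libraries were made from RNA of sorted mTECs with the SMART-seq v4 Ultra Low Input and Nextera XT kits, per the labels' protocols. The authors deposited 1 table per library with a gene symbol and an inclusion fraction for each event. Trimmomatic 0.39, TopHat2, Cufflinks and build mm10 are named in the submitters' processing notes, with no role or order; the sources used here do not give how the fraction was computed or any coverage minimum (both not given). Low-input amplification and thin coverage can both push a fraction to 0 or 1. Some fractions were too small to be plain ratios of read counts, such as 1.58e-65 for Ank1 event 4 with Raver2 knockdown sh2. A fraction need therefore not be a direct and separate measurement of 1 exon.

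Processing used Python 3.11.15 (pandas 2.3.3, numpy 2.4.6, matplotlib 3.10.9). Events were matched by gene and row order, and kept for genes listed with the same number of events in all 6 libraries. The fit, on all 6 libraries, was limma 3.58.1 in R 4.3.3 on the fractions, using one mean for each of the 3 groups, a variance trend and two-sided contrasts, adjusted over 4658 events. Alternatives were an arcsine square root scale, no variance trend, only the 4 libraries compared, only events with no fraction below 0.01 or above 0.99, each library left out, and a block for the hairpin number. Annotation and exon sequences came from GENCODE M21, which matched 2598 of 2685 symbols. The members and lists were chosen with earlier results of these data known. All events of the 10 genes are named; of the lists, every event that passed and otherwise up to 2 events of each by absolute moderated t, 1 per gene. Some items that these rules select are not reported here. Hairpin numbers name different hairpins in the 2 knockdowns, and the labels do not say whether same-numbered libraries belong together. 2 events of a gene are called complements if they sum to within 0.02 of 1 in every library, and libraries of a comparison are apart where both of one group lie beyond both of the other and the means differ by at least 0.2.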

Additional observations from a re-analysis of the deposited data

Results flagged for a closer look

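Pdlim5 event 5 differed between the knockdowns, by -0.9999 for Raver2 knockdown minus Setd2 knockdown, with both Raver2 knockdown libraries below 0.01 and both Setd2 knockdown libraries above 0.99. Ank1 event 1 differed by 0.997 for Raver2 knockdown minus Setd2 knockdown, and Ank1 event 5 by 0.9997. These 3 events stand here because they passed the adjusted p threshold between the knockdowns in the limma fit of all events. They are 3 of 33, beside 0.73% of all events. With the hairpin number as a replicate block none of them passed, nor did any other event. The contrast between the knockdowns also chose the genes, so the call supports nothing and the differences are a description. Ank1 has 5 other events in which the Setd2 hairpins gave opposite values. Among these, event 8 matched event 1 and event 9 matched event 5 in all libraries but Setd2 sh2, to within 0.001. Ank1 events 1 and 5 are therefore not independent of the events in which the hairpins disagreed. No group has the 4 libraries that a search for single outlying libraries needs.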

How the results depend on the processing

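Counts of events with an adjusted p under 0.05 in limma depended on which libraries and events were fitted. Over all events, Raver2 knockdown against Ctr gave 113 events, 75 with only the 4 libraries compared and 10 among the 2000 events with no library below 0.01 or above 0.99 (mid-range events). Setd2 knockdown against Ctr gave 104, then 0 (554 at an unadjusted p under 0.05) and 6. Raver2 knockdown against Setd2 knockdown gave 34, and 0 among mid-range events (107 unadjusted). Leaving out 1 library gave 74 to 291 for Raver2 knockdown against Ctr, with 291 without Ctr library 1, 280 without Ctr library 2 and 74 without Setd2 knockdown library 2. For Setd2 knockdown against Ctr the range was 48 to 279, with 279 and 261 without Ctr library 1 or 2, and 54 and 48 without Raver2 knockdown library 1 or 2. Between the knockdowns it was 46 to 119, with 56 without Ctr library 2, 119 and 97 without Raver2 knockdown library 1 or 2, and 67 and 106 without Setd2 knockdown library 1 or 2. A library left alone in its group is assumed to vary like the others.

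For the 33 events of the 10 genes only differences of means are compared. Among differences from Ctr of at least 0.01, leaving out 1 library turned the sign of 7. For Setd2 knockdown these were Ank1 event 3 (-0.171 without Setd2 knockdown library 1, 0.329 with it), Ank1 events 4, 8, 9 and 11 (about 0, about 0, 0.172 and about 0 without the same library), Pak3 event 2 (-0.026 without Setd2 knockdown library 2, 0.0361 with it) and Pdlim5 event 2 (about 0 without Ctr library 1, -0.50 with it). Between the knockdowns, Pak3 event 3 turned (0.133 without Setd2 knockdown library 1, -0.349 with it), as did the small differences of Add3 and Pak3 event 2.

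For the 75 events of the lists, Raver2 knockdown against Ctr gave 1 call, 2 on the arcsine square root scale, 2 with no variance trend and 0 among mid-range events (2 of 18 unadjusted). Setd2 knockdown against Ctr gave 0 (11 unadjusted) and 2 on the arcsine scale, and the knockdowns gave 0 against each other (5 unadjusted) and 1 with only their own 4 libraries. Leaving out 1 library gave 1 to 6 calls for Raver2 knockdown, 1 to 6 for Setd2 knockdown and 0 to 1 between the knockdowns. The counts were 6 and 6 without Ctr library 1, 4 and 4 without Ctr library 2, 3 and 2 without Raver2 knockdown library 1, and 2 and 1 without Raver2 knockdown library 2, for Raver2 and Setd2 knockdown against Ctr.

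With the hairpin number as a replicate block, the comparison of the knockdowns over their 4 libraries gave 0 calls over all events (265 unadjusted) and 0 in the lists (4 unadjusted). The differences sh1 minus sh2 of the 2 knockdowns correlated at 0.0146 over all events (Pearson, across events). That value leaves out Ctr and cannot show whether same-numbered libraries shared a batch, which the labels do not say. Without read counts, how far depth limits single fractions is unknown.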
